A study of Mus musculus with 13 samples.

Results

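The KAP1 peaks examined here lay in H3K9me3 and far from genes in Hepa 1-6 cells, a murine hepatoma line. Of the 12470 KAP1 peaks of the series, 4995 overlapped an H3K9me3 region by at least 1 bp, and 4412 of these overlapped no H3K27ac or H3K4me1 region. The centres of 2827 of the latter lay outside protein-coding gene bodies and more than 3 kb from the start of any protein-coding transcript (mm9, GENCODE M1), and these 2827 are called distal KAP1/H3K9me3 peaks below. They were thus chosen by the measured KAP1, H3K9me3, H3K27ac and H3K4me1 lists, so their KAP1 score and their H3K9me3 are given as descriptions and were not tested. Where a test is given, they were compared with other KAP1 peaks that overlapped H3K9me3 and no active mark, of which 620 were near gene starts (centre within 3 kb) and 965 in gene bodies, and with 1176 KAP1 peaks far from genes that overlapped no H3K9me3, H3K27ac or H3K4me1 region and are called unmarked distal peaks.

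The series held 13 samples, 8 of them with a deposited list, and each list came from 1 library. KAP1, H3K27ac, H3K4me1 and H3K9me3 were profiled by ChIP-seq in cells under standard culture. The polymerases, PolII (RNA polymerase II, which makes messenger RNA) and PolIII (RNA polymerase III), were profiled 5 days after cells had received either a short hairpin RNA against KAP1 (Kap1 KD) or its control. The labels describe that control as a control hairpin, whereas the study's methods speak of an empty vector. The other 5 samples were inputs and were not analysed here. There was no replicate error for any value, no KAP1 or H3K9me3 profile of Kap1 KD cells was used here, and the depth of the libraries is unknown because the lists hold no read counts. As a check of the cell type, the hepatocyte genes Alb, Afp and Hnf4a carried H3K27ac within 250 bp of the gene start, while Ttr, Apoa1, Apob and Serpina1a did not. Of 6 genes of other cell types 2 carried it (Col1a1 and Krt19, but not Ptprc, Emr1, Pecam1 or Cdh5), and no control PolII peak lay at the start of any of these genes.

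KAP1 (gene Trim28) is a corepressor that does not read DNA itself. KRAB zinc finger proteins bring it to specific sequences, and it recruits the methyltransferase SETDB1, which deposits H3K9me3. Its best known targets of this kind are endogenous retroviruses and related retrotransposons, which are dispersed over the genome in many copies. An intact element of that type carries the same long terminal repeat (LTR) at both ends in the same orientation, and it is flanked by a short duplication of host sequence made when it inserted.

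Many distal peaks shared sequence with one another, so sequence is shown first. The central 300 bp of all distal peaks were aligned with one another, and peaks that shared at least 200 bp at 80% identity or more were joined into sequence families. The lines below give the reference sequence (mm9) around the centre of the best connected peak of each of the 5 largest families and of the first by position of the highest-scoring distal peaks, which belonged to no family. Capitals mark the 20 bases of that window that occurred in the most members of its family, on either strand. The single-copy window has no such mark.
Family 1, chr5:100242844-100243143, + strand: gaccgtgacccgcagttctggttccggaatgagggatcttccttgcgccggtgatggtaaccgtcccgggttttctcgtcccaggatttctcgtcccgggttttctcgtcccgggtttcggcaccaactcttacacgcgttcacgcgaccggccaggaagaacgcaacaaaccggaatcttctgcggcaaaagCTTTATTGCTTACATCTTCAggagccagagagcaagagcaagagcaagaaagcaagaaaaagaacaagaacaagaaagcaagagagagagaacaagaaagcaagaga
Family 2, chr2:116364949-116365248, + strand: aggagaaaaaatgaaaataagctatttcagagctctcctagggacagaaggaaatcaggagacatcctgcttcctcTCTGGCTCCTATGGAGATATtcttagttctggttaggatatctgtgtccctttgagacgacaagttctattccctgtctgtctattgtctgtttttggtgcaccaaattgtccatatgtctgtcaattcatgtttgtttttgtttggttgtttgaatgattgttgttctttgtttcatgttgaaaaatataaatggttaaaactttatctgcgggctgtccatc
Family 3, chr2:168199565-168199864, + strand: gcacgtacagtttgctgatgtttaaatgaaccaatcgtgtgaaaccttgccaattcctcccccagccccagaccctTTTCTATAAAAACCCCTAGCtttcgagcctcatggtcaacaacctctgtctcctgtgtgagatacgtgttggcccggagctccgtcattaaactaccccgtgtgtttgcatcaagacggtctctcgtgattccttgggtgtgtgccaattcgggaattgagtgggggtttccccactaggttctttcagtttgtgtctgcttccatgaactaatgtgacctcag
Family 4, chr4:40383973-40384272, + strand: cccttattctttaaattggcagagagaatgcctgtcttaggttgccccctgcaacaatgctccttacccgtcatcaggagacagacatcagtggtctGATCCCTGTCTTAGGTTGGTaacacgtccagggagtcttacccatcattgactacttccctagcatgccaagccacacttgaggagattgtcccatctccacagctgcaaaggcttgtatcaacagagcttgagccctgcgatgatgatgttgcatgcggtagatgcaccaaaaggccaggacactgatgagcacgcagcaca
Family 5, chr12:20091094-20091393, + strand: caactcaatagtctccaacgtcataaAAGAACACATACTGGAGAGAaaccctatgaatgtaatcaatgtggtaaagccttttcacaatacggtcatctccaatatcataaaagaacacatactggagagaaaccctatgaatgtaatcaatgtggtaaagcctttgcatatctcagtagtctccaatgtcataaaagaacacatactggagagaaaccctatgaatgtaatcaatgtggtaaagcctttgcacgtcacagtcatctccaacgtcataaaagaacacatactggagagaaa
Single-copy peak, chr6:149311780-149311979, + strand: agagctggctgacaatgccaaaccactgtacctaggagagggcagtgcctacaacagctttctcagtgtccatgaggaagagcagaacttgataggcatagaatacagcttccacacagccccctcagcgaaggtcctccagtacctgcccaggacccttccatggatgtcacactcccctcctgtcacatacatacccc

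The 20 bases in capitals occurred within the central 300 bp of 295 of the 754 members of family 1, 78 of the 164 of family 2, 25 of the 125 of family 3, 37 of the 65 of family 4 and 42 of the 58 of family 5. The family 1 window held 21 CpG dinucleotides, and the family 2 window held 2. The nearest protein-coding genes to the 5 representatives were A930011G23Rik at 84910 bp, Tmco5 at 339328 bp, Kcng1 at 92479 bp, Tmem215 at 35090 bp and Gm10479 at 330555 bp, in the order of the families.

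In all, 1961 of the 2827 distal peaks (69.4%) fell into 133 families, and 866 shared sequence with no other distal peak. The 5 largest families held 1166 peaks (41.3%), and 24 families had 10 members or more. Peaks are therefore not independent of one another, and p-values below describe only the peaks listed for these libraries. Family 1 alone held 754 peaks, on 21 chromosomes. Joining was by single linkage, and the representative of family 1 was linked directly to 158 peaks, so that family is a chain of related sequences and not 1 uniform element. Family 2 was tighter, with 121 direct links for its representative among 164 members on 19 chromosomes.

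The large families differed in composition. The number of copies of a sequence was taken as the median number of genome-wide occurrences, on both strands, of the 31-mers in the central 300 bp. Family 1 had a median of 45.5 copies, a GC content of 50.7% and a CpG ratio (observed over expected) of 0.790. Family 2 had 4 copies, 38.0% GC and a CpG ratio of 0.107. Family 3 was single-copy by this measure (median 1), with a CpG ratio of 0.461. Family 4 had 2 copies and a CpG ratio of 0.262. Family 5 had 7.5 copies, 37.2% GC and a CpG ratio of 0.101.

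**Figure D1:**
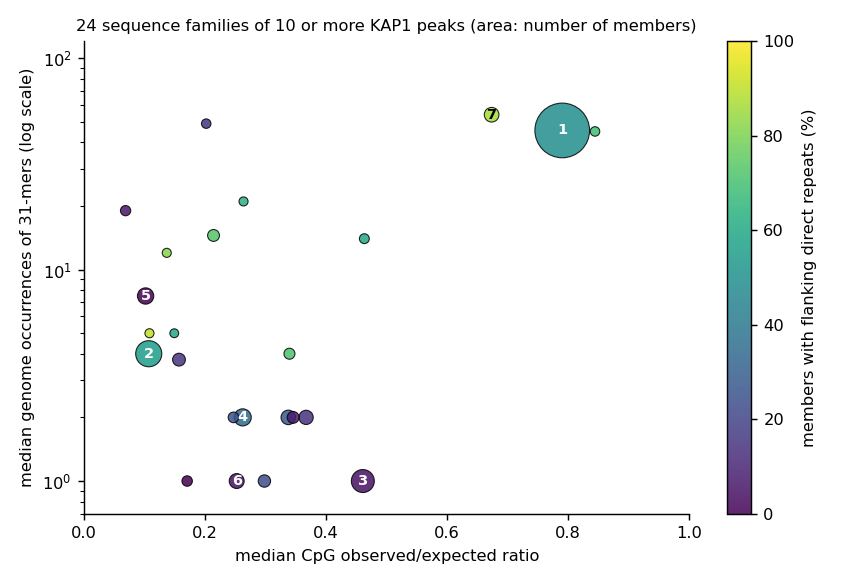
The 24 sequence families with 10 or more distal KAP1/H3K9me3 peaks, by the median CpG observed over expected ratio (x) and the median number of genome occurrences of the 31-mers in the central 300 bp (y, log scale). The area of a circle grows with the number of members, the colour gives the percentage with flanking direct repeats, and the 7 largest families are numbered; family 1 lies at 0.790 and 45.5 copies, and family 2 at 0.107 and 4 copies.

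KAP1 scores, which are those of the deposited list and served to choose the peaks, also differed between families. The median score was 96.5 in family 1 (quartiles 69.1 and 156), 468 in family 2 (227 and 698), 171 in family 3, 135 in family 4 and 278 in family 5. Over all distal peaks the median was 120.5 (quartiles 73.9 and 245), beside 101.5 for the whole KAP1 list. The classes compared had medians of 260.8 near gene starts, 129.5 in gene bodies and 84.1 in unmarked distal peaks. The numerous CpG-rich family thus carried lower scores than the less numerous, CpG-poor family 2, and the quartile ranges of these families did not overlap. By quintile of the KAP1 score over the whole list, the distal peaks made up 18.4% of the lowest quintile and 29.9% of the highest. Sequence of 10 or more copies was found in 41.5% of the distal peaks in the lowest quintile (190 of 458) and in 23.7% of those in the highest (177 of 746). Whether reads that map to several places were kept is not stated in the sources used here, and the effect of mapping on scores in multi-copy sequence was not tested.

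Multi-copy sequence, meaning 10 copies or more, lay at the centre of 1001 of the 2827 distal peaks (35.4%, 95% Wilson interval 33.7 to 37.2), beside 12.8% of all KAP1 peaks. The share was 2.90% near gene starts (18 of 620), 24.4% in gene bodies (235 of 965) and 12.8% in unmarked distal peaks (150 of 1176). The odds of multi-copy sequence were higher in distal KAP1/H3K9me3 peaks than in each of these by Fisher's exact test (two-sided, adjusted over 18 tests by Benjamini-Hochberg). The odds ratio was 18.3 (95% interval 11.4 to 29.5, adjusted p = 1.14e-75, exact test) against peaks near gene starts. It was 1.70 (1.44 to 2.01, adjusted p = 5.00e-10, exact test) against peaks in gene bodies. It was 3.75 (3.11 to 4.52, adjusted p = 3.13e-51, exact test) against unmarked distal peaks. In a further setting families were joined over all 4 classes, and only the highest-scoring peak of each family was kept. That left 935 of the 2827 distal peaks and 544 of the 965 in gene bodies. The shares were then 7.27% and 3.12%, with an odds ratio of 2.43 (adjusted p = 0.00164, exact test). A family shared between classes counts in 1 class only under this rule. This odds ratio therefore cannot show how the difference would stand without shared sequence. At 100 copies or more the difference from gene bodies no longer passed the threshold (9.55% against 7.46%, odds ratio 1.31, adjusted p = 0.115, exact test).

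Multi-copy sequence was also frequent in H3K9me3 without KAP1. Among H3K9me3 regions that met the same rule of position and active marks, 38477 overlapped no KAP1 peak, and the centre was multi-copy in 18587 of the 38473 that could be scored (48.3%, 95% Wilson interval 47.8 to 48.8). This share was not tested against that of the peaks, since regions and peaks differ in width. Only 7.76% of such H3K9me3 regions (3238 of 41715) overlapped a KAP1 peak. The regions with KAP1 were wider (median 708 bp against 268 bp), and the share with KAP1 was 4.04% among regions under 500 bp and 28.0% among regions of 2000 bp or more. A wider region has more room for an overlap, so this trend is a description.

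**Figure D2:**
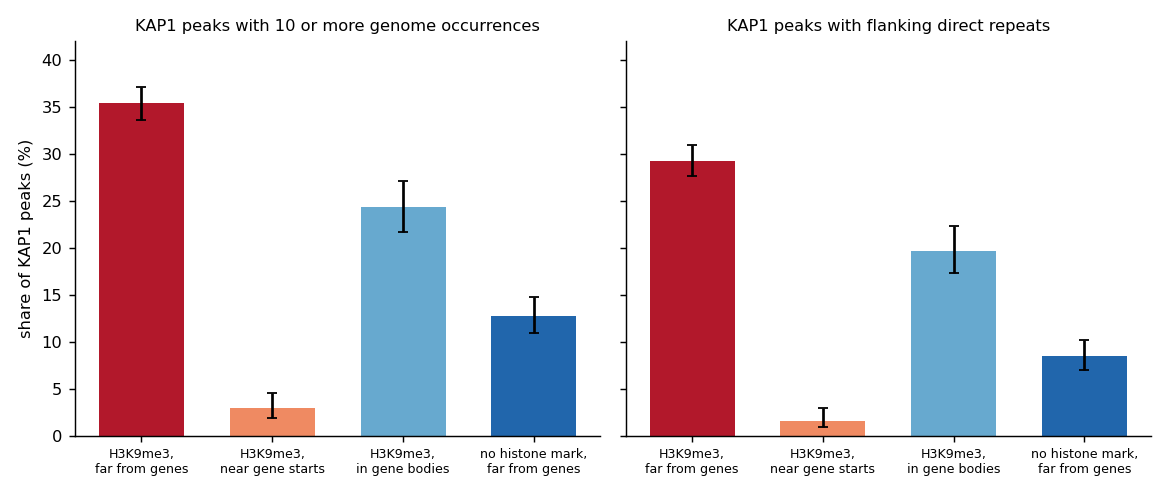
Share of KAP1 peaks (%) whose central 300 bp has 10 or more genome occurrences (left) and whose centre lies between or inside paired direct repeats (right), in distal KAP1/H3K9me3 peaks and the 3 classes compared with them. Error bars are 95% Wilson intervals over peaks; the distal peaks in H3K9me3 stand highest in both panels, at 35.4% and 29.3%, and peaks near gene starts lowest, at 2.90% and 1.61%.

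Paired direct repeats, the form that the LTRs of an intact element take, surrounded 828 distal peaks (29.3%, 95% Wilson interval 27.6 to 30.99). A pair was counted where 2 same-strand repeats of at least 200 bp and 90% identity had starts 3 to 10 kb apart and the KAP1 centre lay between them or inside one. Over the 5588 peaks of the classes compared the share was 20.2%. It was 1.61% near gene starts (10 of 620), 19.7% in gene bodies (190 of 965) and 8.50% in unmarked distal peaks (100 of 1176). The odds ratio was 25.3 (95% interval 13.5 to 47.4, adjusted p = 5.02e-66, Fisher's exact test) against peaks near gene starts. Against gene bodies it was 1.69 (1.41 to 2.02, adjusted p = 1.06e-08, Fisher's exact test). Against unmarked distal peaks it was 4.46 (3.58 to 5.55, adjusted p = 2.31e-51, Fisher's exact test). With 1 peak per family, kept over all classes as above, the odds ratio against gene bodies was 2.95 (adjusted p = 1.94e-06, Fisher's exact test). Against unmarked distal peaks, of which 676 of 1176 were kept, it was 11.4 (adjusted p = 7.64e-18, Fisher's exact test). The limit given above for that setting holds for both.

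Both properties coincided only in part. Multi-copy sequence and direct repeats were found together at 502 distal peaks, multi-copy sequence alone at 499 and direct repeats alone at 326. Neither was found at 1500, of which 762 were also in no family. Direct repeats surrounded 48.9% of family 1 (369 peaks), 54.9% of family 2 (90), 4% of family 3 (5), 33.8% of family 4 (22) and none of family 5. Family 7, with 45 members and a CpG ratio of 0.673, had them at 86.7%, with a median spacing of 8142 bp and repeats of 556 bp.

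The paired repeats had a median length of 358 bp (quartiles 327 and 444) and a median identity of 96.5%, and their starts lay a median of 5670 bp apart. The 828 peaks fell into 709 distinct spans, of which 107 held 2 or more of the peaks. Spacings were not evenly spread, and 97 peaks had a spacing between 6750 and 7000 bp, 63 of them from family 1. In family 1 the repeats were 99.1% identical in the median, against 94.1% in family 2 and 92.4% in family 4.

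The ends of these spans were then examined for the short host duplication that an insertion leaves. In 431 of the 828 spans counted by peak (52.1%, 95% Wilson interval 48.6 to 55.4) the 6 bases before the left repeat were identical to the 6 bases after the right repeat, with the edge of each repeat allowed to move by up to 3 bp. At the inner edges of the same repeats, where an insertion leaves no duplication, the same search found 1 match in 828 (0.121%). The share at the outer edges was 66.9% in family 1 and 52.2% in family 2. The lines below show, for the pair of highest identity in each of these families among those with a match and with TG and CA at the ends of the element, the outer junctions. Such ends together with a match were found at 52 of 369 peaks of family 1 (14.1%) and 19 of 90 of family 2 (21.1%), so the examples are not typical in this respect. Capitals mark the duplicated 6 bases, and lower case the outermost 30 bases of the element.
Family 1, left junction, chr5:64422067-64422102, + strand: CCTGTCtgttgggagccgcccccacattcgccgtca
Family 1, right junction, chr5:64429512-64429547, + strand: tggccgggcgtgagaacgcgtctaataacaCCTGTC
Family 2, left junction, chr3:114890491-114890526, + strand: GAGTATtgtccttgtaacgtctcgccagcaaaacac
Family 2, right junction, chr3:114895573-114895608, + strand: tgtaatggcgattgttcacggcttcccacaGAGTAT

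The family 1 example was an element of 7469 bp whose repeats of 481 bp were 100% identical, and its KAP1 peak (chr5:64422067-64422955, score 76.7) began at the left junction, with the centre 438 bp from the outer end. The family 2 example spanned 5107 bp with repeats of 303 bp at 97.03% identity. Its KAP1 peak (chr3:114893793-114895109, score 826) had its centre 1152 bp from the right end and lay wholly inside the element.

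The position of the KAP1 centre between the repeats is given as a description, because families were built from the sequence around that centre, which ties the members of a family to like positions. In family 1 it lay a median of 38 bp inside the inner edge of the nearer repeat (quartiles 158 bp inside and 77 bp beyond), and 213 of 369 centres (57.7%) were within a repeat. In family 2 only 1 of 90 centres was within a repeat, and the centre lay a median of 1107 bp beyond the inner edge (quartiles 870 and 1451 bp). In family 4 none of 22 centres was within a repeat, and the median was 144 bp beyond the inner edge. When family 2 elements were turned to 1 orientation by their alignments, 88 of 90 centres were nearer to the same end, at a median of 1414 bp from it, which the way the family was built favours. In family 1, 110 of 369 were nearer to the end on the 5′ side of the printed strand and the rest nearer to the other.

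**Figure D3:**
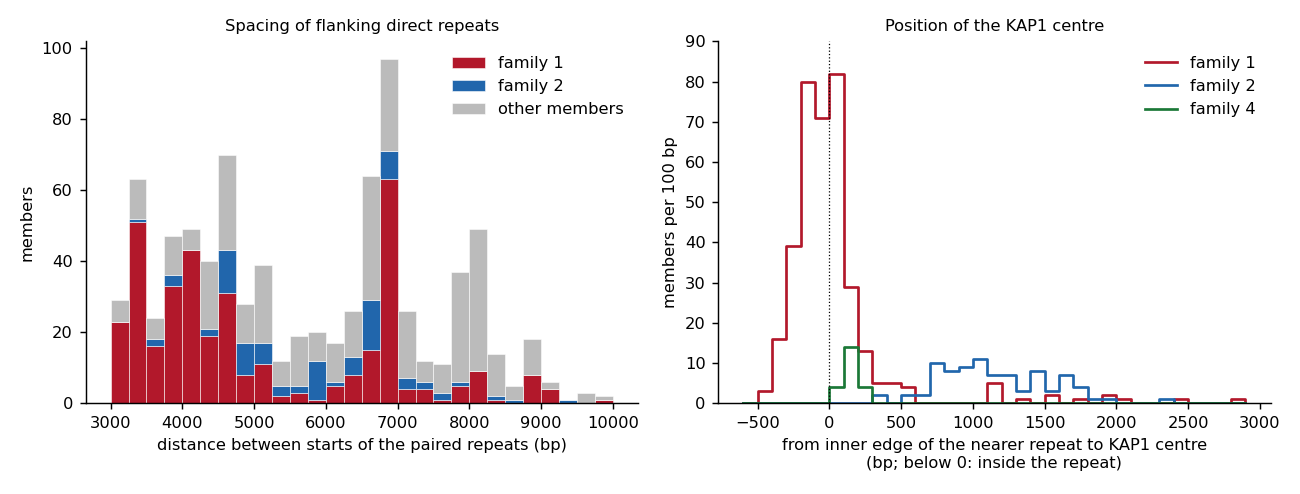
Distal KAP1/H3K9me3 peaks with flanking direct repeats. Left, the number of peaks by the distance between the starts of the paired repeats (bp, bins of 250 bp) for family 1, family 2 and all other members; right, the distance (bp) from the inner edge of the nearer repeat to the KAP1 centre in bins of 100 bp, negative inside the repeat and drawn up to 3000 bp. Family 1 centres gather around the inner edge of the repeat (median 38 bp inside it), family 4 centres at a median of 144 bp beyond it, and family 2 centres at a median of 1107 bp beyond it.

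Family 5 was of another kind. When its central 300 bp were laid over themselves at shifts of 20 to 150 bp, the best shift was 84 bp in 52 of its 58 members (at 70% identical bases or more), with a median of 88.2% identical bases. The printed representative was 89.3% identical to itself at that shift. Zinc finger genes of the C2H2 type encode each finger and its linker in a unit of 84 bases, repeated in tandem in 1 exon. Of all distal peaks 56 (1.98%) had this unit, beside 24 of 620 near gene starts (3.87%), 33 of 965 in gene bodies (3.42%) and 3 of 1176 unmarked distal peaks (0.255%). These shares were not tested. The 56 peaks were wide (median 1911.5 bp, against 1087 bp for all distal peaks) and had a median KAP1 score of 287. They lay mainly on chromosome 12 (26) and chromosome 13 (14). The nearest protein-coding gene was named Zfp for 7 of them, and Gm17391 (5), Gm10479 (4) and Gm17680 (4) were nearest to the most.

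Copies of the 5 representatives were then sought over the whole genome, at 80% identity or more over at least 200 bp. Family 1 had 1229 copies, of which 417 (33.9%, 95% Wilson interval 31.3 to 36.6) overlapped a KAP1 peak. Family 2 had 460 copies, of which 293 (63.7%, 59.2 to 68.0) overlapped one. The shares were 21.6% of 867 copies for family 3 and 44.1% of 188 for family 4. The 2732 alignments of family 5 count overlapping units of tandem arrays, and those that overlapped KAP1 fell into 106 KAP1 peaks. The 292 KAP1 peaks over family 2 copies included 191 distal KAP1/H3K9me3 peaks, 63 unmarked distal peaks, 18 in gene bodies and 2 near gene starts, so this sequence was bound both with and without a called H3K9me3 region.

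H3K9me3 was called more often at the copies with KAP1, and since the peaks were chosen for H3K9me3 these shares are descriptions. Of the family 1 copies with KAP1, 84.7% overlapped an H3K9me3 region, against 30.4% of those without KAP1. For family 2 these shares were 62.1% and 10.2%, and for family 3 they were 66.8% and 18.8%. H3K27ac was called over 2 of 1229 family 1 copies, 5 of 460 family 2 copies, 21 of 867 family 3 copies and none of the copies of families 4 and 5. H3K4me1 was called over 7, 9, 9 and 2 copies of families 1 to 4 and over 106 of the 2732 family 5 alignments (3.88%). Many of these copies lie in distal peaks, which were chosen to lack both marks.

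In families 1, 2 and 3 the copies closer to the printed sequence carried KAP1 more often, and in families 4 and 5 the share did not rise throughout. For family 2 the share with KAP1 was 37.8% (34 of 90 copies) at 80% to under 85% identity, 62.4% (113 of 181) at 85% to under 90%, 75.8% (135 of 178) at 90% to under 95%, and 11 of 11 above that. For family 3 it was 16.8% (112 of 665), 35.3% (65 of 184) and 9 of 17 in the same order up to under 95%. The rise was smaller in family 1, from 30.3% (190 of 627) to 40.2% (90 of 224) over these 3 ranges. In family 4 the shares were 43.8% (57 of 130), 47.8% (11 of 23), 33.3% (8 of 24) and 63.6% (7 of 11), with intervals that overlapped. In family 5 they were 38.5%, 66.8%, 77.9% and, with 10 alignments, 70%. The representative was itself chosen among KAP1 peaks for its likeness to other peaks, so these shares are descriptions and were not tested.

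**Figure D4:**
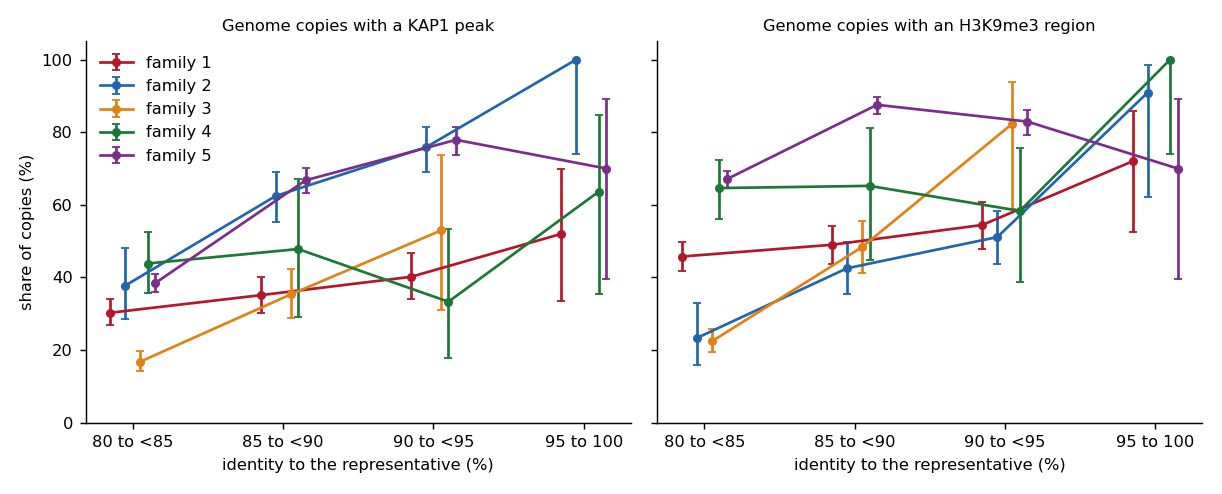
Share (%) of the genome copies of the 5 family representatives that overlap a KAP1 peak (left) or an H3K9me3 region (right), by identity to the representative (%); error bars are 95% Wilson intervals over copies, and ranges with under 10 copies are not drawn. In family 2 the share with KAP1 goes from 37.8% in the lowest range to 11 of 11 in the highest, and in family 1 from 30.3% to 52.0%, while family 4 goes from 43.8% to 63.6% with 33.3% between. For family 5 the bars count overlapping alignments of tandem arrays as separate copies. Those with KAP1 fell into 106 KAP1 peaks, so these bars are too narrow.

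H3K9me3 around the distal peaks fell off within a few kb of the centre. An H3K9me3 region covered the KAP1 centre itself at 2292 of 2827 peaks (81.1%), and a median of 63.7% of the KAP1 peak lay in H3K9me3 (quartiles 38.7 and 87.8%). Between 200 bp to the left of the centre and the centre, 78.8% of bases lay in H3K9me3. That fell to 37.2% at 700 bp and to 9.08% at 4900 bp on the same side. KAP1 peaks in gene bodies had 42.9% and 8.45% at these distances and peaks near gene starts 51.0% and 8.13%, so the fall was shared by the classes. The widest H3K9me3 region at a distal peak had a median of 827 bp, against 324 bp for the whole H3K9me3 list. In family 1 the fall was steeper, to 19.5% at 700 bp, and in family 2 it was slower, at 44.7%. The members in no family had 41.8% there. Since the rule asked for an overlap with H3K9me3, which wider regions meet more easily, both the level at the centre and the width around it are descriptions.

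**Figure D5:**
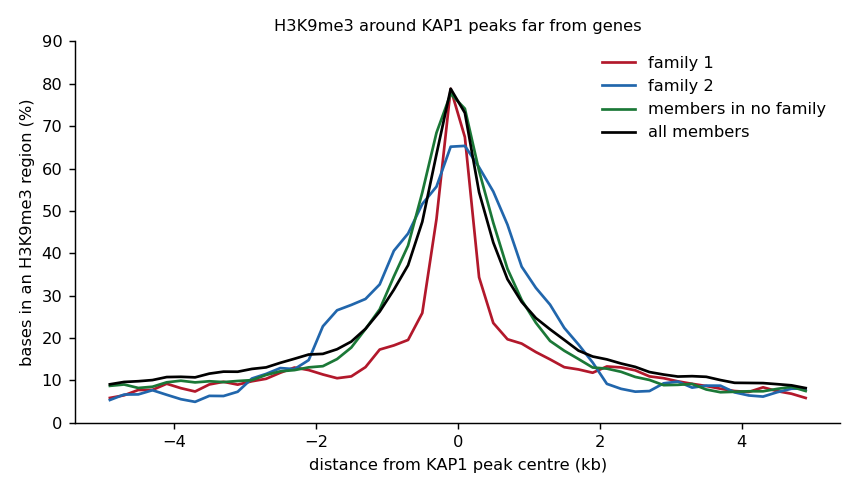
Percentage of bases that lie in an H3K9me3 region, in bins of 200 bp, by distance from the KAP1 peak centre (kb), for family 1 (754 peaks), family 2 (164), members in no family (866) and all 2827 distal peaks. Bars of error are not drawn because each list is 1 library; family 1 falls to 19.5% at 700 bp to the left of the centre, and family 2 to 44.7%.

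PolII was rarely called at the distal peaks. The rule had left out peaks with active marks, near coding starts or in coding gene bodies. The whole KAP1 list holds such peaks, so it is not a matched comparison for PolII. A control PolII peak overlapped 26 of 2827 (0.920%, 95% Wilson interval 0.628 to 1.34), beside 16.8% of all KAP1 peaks. A Kap1 KD PolII peak overlapped 84 (2.97%, 2.41 to 3.66), beside 28.6% of all KAP1 peaks. Of these, 22 peaks had both, 62 had Kap1 KD PolII only and 4 control PolII only. Over all KAP1 peaks 1998 had both, 1564 had Kap1 KD PolII only and 93 control PolII only, so more peaks with Kap1 KD PolII only than with control PolII only were also seen in the whole list. H3K9me3 regions far from genes without an active mark or KAP1 showed the same direction. Of 38477 such regions, 880 (2.29%) overlapped Kap1 KD PolII and 130 (0.338%) control PolII. The Kap1 KD list is 2.56 times as long as the control list. When it was cut to its 5015 highest-scoring peaks, the length of the control list, 29 distal peaks (1.03%, 0.715 to 1.47) overlapped it, against 26 for the control list. Over all KAP1 peaks 2094 (16.8%) overlapped the shortened list, against 2091 for the control list.

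None of the 6 comparisons of PolII shares between distal peaks and the other classes passed the threshold, though under other settings Kap1 KD PolII against unmarked distal peaks did. For control PolII the shares were 1.13% near gene starts, 0.933% in gene bodies and 1.19% in unmarked distal peaks, with odds ratios of 0.813 (95% interval 0.351 to 1.88), 0.986 (0.460 to 2.11) and 0.770 (0.401 to 1.48) and adjusted p-values of 0.729, 1 and 0.624 (Fisher's exact test). For Kap1 KD PolII the shares were 2.26%, 3.73% and 2.21%, with odds ratios of 1.33 (0.748 to 2.35), 0.790 (0.531 to 1.18) and 1.35 (0.868 to 2.11) and adjusted p-values of 0.624, 0.397 and 0.366 (Fisher's exact test). With genes of every biotype in the rule the odds ratio of Kap1 KD PolII against unmarked distal peaks was 1.92 (adjusted p = 0.0409, Fisher's exact test), and with no active mark within 1 kb it was 1.85 (adjusted p = 0.0481, Fisher's exact test). Among peaks at or above the median KAP1 score, the Kap1 KD share was 3.50% in distal KAP1/H3K9me3 peaks and 0.897% in unmarked distal peaks (odds ratio 4.002, 95% interval 1.44 to 11.1, adjusted p = 0.00464, Fisher's exact test).

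Within the distal peaks, Kap1 KD PolII overlapped 44 of 1001 multi-copy peaks (4.396%, 95% Wilson interval 3.29 to 5.85) and 40 of 1826 others (2.19%, 1.61 to 2.97). Control PolII overlapped 0.799% and 0.986% of the same peaks. With direct repeats the Kap1 KD share was 4.59% (38 of 828), and without them it was 2.30% (46 of 1999), while control PolII stood at 0.966% and 0.900%. Family 1 held 27 of the 84 peaks with Kap1 KD PolII and 2 of the 26 with control PolII, and it holds 754 of the 2827 distal peaks. Family 2, with 164 of them, held 1 and 0. These splits were not tested and were not recomputed at equal list length.

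Kap1 KD PolII without any control PolII peak within 1 kb was found at 60 distal peaks, of which 37 were multi-copy, 33 had direct repeats and 26 belonged to family 1. Of all 2827 distal peaks, 1001 were multi-copy, 828 had direct repeats and 754 belonged to family 1. The count of 60 was not set against all KAP1 peaks. It rests on the full Kap1 KD list, which is longer than the control list. At equal list length 29 distal peaks overlapped Kap1 KD PolII and 26 overlapped control PolII. The deposited PolII peaks are numbered with gaps, and at 21 of the 60 at least 1 number of the control list was missing between its neighbouring control peaks, and whether a control call had been removed there was not tested. The 5 with the highest KAP1 score are given here, and control numbers were missing at those near Cdh9 (4), Mrps36-ps1 (1) and Srpk2 (8). At chr15:15717956-15719532 (KAP1 score 1553, family 1, 989112 bp from Cdh9, which encodes a cadherin) the PolII peak was chr15:15718539-15718978, and the surrounding repeats were 9163 bp apart. At chr17:54024039-54027764 (score 1506, 19536 bp from Mrps36-ps1) it was chr17:54025143-54025315. At chr15:38545663-38547499 (score 502, family 1, 45078 bp from Atp6v1c1, a subunit of the vacuolar proton pump) it was chr15:38546504-38546904, and the repeats there were 99.1% identical. At chr5:23213051-23215204 (score 459, 31862 bp from Srpk2, a splicing factor kinase) it was chr5:23214676-23215050, and the repeats there were 533 bp long and 100% identical. These 4 had their KAP1 centre between paired direct repeats or inside one of them. The last, chr8:82203977-82205329 (score 429), had no such repeats and lay 2688 bp from Abce1, a ribosome recycling factor. Its PolII peak chr8:82201930-82205944 was wider than the KAP1 peak.

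The 3 highest-scoring distal peaks with control PolII differed in kind. The first, chr3:96260567-96265598 (score 1465), overlapped a copy of the U1 small nuclear RNA gene, lay 6854 bp from BC107364, and carried control PolII, Kap1 KD PolII and control PolIII. The second, chr4:23448902-23451219 (score 1087), was a family 1 peak 973537 bp from Mms22l, a replication repair gene, and carried control PolII only. The third, chr13:81203102-81205726 (score 915), overlapped the noncoding gene 9330111N05Rik 29653 bp from Gpr98 and carried PolII in both conditions.

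PolIII transcribes transfer RNA and other short RNA genes. Control PolIII peaks overlapped 46 distal peaks (1.63%, 95% Wilson interval 1.22 to 2.16), beside 2.63% of all KAP1 peaks, and Kap1 KD PolIII peaks overlapped 5 (0.177%, 0.0756 to 0.413), beside 1.51%. The PolIII lists are numbered with gaps as well, with 30.4% of the control numbers and 55.0% of the Kap1 KD numbers missing, and whether calls at these peaks had been removed was not tested. The control PolIII list has 89.5% of its peaks on chromosomes 1 to 4, against 20.7% of the Kap1 KD list. Without these chromosomes control PolIII overlapped 2 and Kap1 KD PolIII 5 of 1957 distal peaks, so the higher control count was not seen outside them.

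In the comparison as designed, both PolIII lists were less frequent in distal KAP1/H3K9me3 peaks than in unmarked distal peaks. For control PolIII the unmarked share was 3.23% (38 of 1176), with an odds ratio of 0.495 (95% interval 0.321 to 0.765, adjusted p = 0.00503, Fisher's exact test). On the chromosomes other than 1 to 4 the odds ratio was 0.0297 (0.00708 to 0.125, adjusted p = 9.14e-13, Fisher's exact test). Without chromosome 13 it was 0.667 and the call was lost (adjusted p = 0.212, Fisher's exact test). It was also lost with genes of every biotype (0.592, adjusted p = 0.0748, Fisher's exact test) and with PolIII counted within 1 kb of the peak (0.705, adjusted p = 0.180, Fisher's exact test). For Kap1 KD PolIII the unmarked share was 1.87% (22 of 1176), with an odds ratio of 0.0929 (0.0351 to 0.246, adjusted p = 7.06e-08, Fisher's exact test). Against peaks near gene starts and in gene bodies neither list differed detectably. Control PolIII shares were 0.806% and 1.24% there (odds ratios 2.04 and 1.31, adjusted p = 0.287 and 0.624, Fisher's exact test). Kap1 KD PolIII overlapped 0 of 620 peaks near gene starts, which allows a share of up to 0.484% if 3 counts are taken as the limit of a count of 0 and up to 0.616% by the Wilson interval, and 1 of 965 in gene bodies (adjusted p = 0.711 and 1, Fisher's exact test).

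The distal peak with the highest KAP1 score among those with PolIII, chr7:133786105-133787463 (score 1595), carried PolIII in both conditions, lay 5953 bp from 2510046G10Rik, and had only 4.71% of its width in H3K9me3. The peak over the U1 gene on chromosome 3 and chr1:140123668-140125610 (score 1254, 45676 bp from Atp6v1g3, another subunit of the vacuolar proton pump) followed it for control PolIII. For Kap1 KD PolIII they were chr5:116237569-116239404 (score 1161, 56800 bp from Cit, a kinase of cell division), which also carried control PolIII, and chr13:66769626-66772688 (score 748, family 5, 548 bp from the zinc finger gene Zfp640), where no control peak was listed and 73 control numbers were missing.

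The distal peaks were spread over all chromosomes read. Their density was highest on chromosome 15 (2.19 per Mb of known sequence, 220 peaks) and lowest on chromosome Y (1 peak) and chromosome 14 (0.370 per Mb, 45 peaks), and the whole KAP1 list had 8.66 per Mb on chromosome 15 and 1.73 on chromosome 14. On chromosome X distal peaks made up 56.5% of KAP1 peaks (91 of 161) and on chromosome 12 they made up 45.0% (103 of 229), against 16.3% on chromosome 11 (184 of 1132). The median distance to the nearest coding start was 48128 bp, 892 peaks were more than 100 kb from one, and the nearest other distal peak lay a median of 92808 bp away, with 710 peaks within 10 kb of another. The nearest active mark was a median of 15143 bp away and lay within 1 kb of 170 peaks.

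The nearest genes included members of gene families that often lie in clusters. The nearest protein-coding gene was a zinc finger gene named Zfp for 72 peaks (2.55%, 95% Wilson interval 2.03 to 3.20), an olfactory receptor gene (Olfr) for 69 (2.44%, 1.93 to 3.08) and a vomeronasal receptor gene (Vmn) for 41 (1.45%, 1.07 to 1.96). These families are 1.67%, 4.98% and 1.47% of the annotated coding genes, so the Zfp share of the peaks lay above the share of genes, the Olfr share below it and the Vmn share close to it, which was not tested. In the unmarked distal peaks the shares were 2.30%, 2.04% and 1.62%. Cdh9 was the nearest coding gene of 18 distal peaks, the most of any gene, and Gm17391 of 15. A noncoding gene was overlapped by 163 distal peaks (5.77%), a pseudogene by 56, a lincRNA by 52 and a processed transcript by 51. The noncoding genes with the most peaks were 9330111N05Rik (5), Gm17265 (4) and 2410018L13Rik (3).

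The 5 distal peaks of highest score were tied at 3100, and none overlapped a PolII or PolIII peak. The peak chr6:149309534-149314226 was 4693 bp wide, had 80.9% of its width in H3K9me3 and overlapped the pseudogene Gm15784, 27700 bp from 2810474O19Rik. The peak chr7:149765457-149768632 was single-copy, lay 40393 bp from Mrpl23, a mitochondrial ribosomal protein gene, and 2997 bp from H19, an imprinted noncoding RNA gene (named after its position was seen). H19 is expressed from the maternal allele, and a control region upstream of it that carries repressive marks on the other allele is a known site of zinc finger proteins that recruit KAP1. The peak chr13:71157291-71160141 had 17 copies and lay 135335 bp from 8030423J24Rik. The peaks chr18:74519494-74521876 and chr18:74523156-74526103 were family 1 peaks in 1 pair of repeats 4158 bp apart, 1047 and 4992 bp from Ccdc11. Of the 5, 3 were in no family and 2 of these were single-copy.

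The widest distal peaks were chr7:15370200-15376745 (6546 bp, 122129 bp from Gm4745), chr13:66239225-66245381 (6157 bp, 19461 bp from Gm16512) and chr8:3061449-3067420 (5972 bp, 86487 bp from Insr, the insulin receptor gene). Their scores were 140, 162 and 303, and H3K9me3 covered 88.0 to 98.6% of each.

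The values on both sides of the 3 kb limit are given as a description. The distal peak nearest to a coding start, chr2:38145408-38146487 near Dennd1a, was 3044 bp from it with a score of 216, and the farthest peak outside gene bodies on the other side, chr7:149400331-149401123 near Gm7579, was 2963 bp from one with a score of 170.5. The 37 distal peaks up to 4000 bp from a start had a median score of 169 and a CpG ratio of 0.353, and 18.9% were multi-copy. The 36 peaks outside gene bodies over 2000 bp from a start but within 3 kb had 116, 0.241 and 13.9%. At the other limit of the rule, the smallest overlap with H3K9me3 was 6 bp, and 8 distal peaks shared under 50 bp with it.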

How the data were processed

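KAP1, histone mark, PolII and PolIII ChIP-seq lists of Hepa 1-6 cells were used. Per the methods, the authors mapped reads with Bowtie to mm9, called KAP1 and PolII with MACS against total input and histone marks with ChIP-Part. The PolIII caller and the mapping options are not given in the sources used here. The deposited score of each peak is the authors' and its scale for PolII and PolIII is not stated. Starts were read as counting from 0 and are printed counting from 1. Copies were 31-mer counts in the mm9 reference, and repeats and families came from blastn 2.17.0 (checked on simulated sequence). No repeat annotation was used, so families carry no element names. Classes were compared by Fisher's exact test (scipy 1.17.1), with Benjamini-Hochberg adjustment over 18 tests, and 0.5 was added to each cell of a table with a 0 for the odds ratio. Odds ratios within score quintiles were pooled by the Mantel-Haenszel method (statsmodels 0.14.6). Wilson intervals cover counting error over peaks only. The members, lists and comparisons were chosen with earlier results of these data known.

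Named sites were the 5 of highest KAP1 score, the representatives of the 5 largest families, the 5 highest-scoring with Kap1 KD PolII and no control PolII within 1 kb, the 3 highest-scoring with control PolII and with each PolIII list, the 3 widest, and the peaks on each side of the 3 kb limit, with ties in order of position and the nearest coding gene of each. Alternatives changed the H3K9me3 share, the distance and gene definitions, the active mark distance, the KAP1 score, the family and repeat settings, the overlap and the chromosomes. A further marker gene is not reported here.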

Additional observations from a re-analysis of the deposited data

How the results depend on the processing

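Odds ratios for multi-copy sequence and direct repeats kept their direction and call under every alternative run except at 100 copies or more. There the odds ratio against gene bodies was 1.31 and missed the threshold. The size against gene starts depended on the rule. For multi-copy sequence it went from 18.3 to 4.52 at 10 kb and 6.71 with genes of every biotype. For direct repeats it went from 25.3 to 5.64 and 7.27. The setting of 1 peak per family carries the limit given above. No paired analysis was possible because each group holds 1 library. The rest concerns rare overlaps. Control PolIII against unmarked peaks lost its call with genes of every biotype (0.592) and within 1 kb (0.705). Kap1 KD PolII against unmarked peaks gained one with genes of every biotype (1.92), with no active mark within 1 kb (1.85) and at or above the median KAP1 score (4.002). Odds ratios that turned direction without passing the threshold were, for control PolII against gene bodies, 1.22 at 10 kb, 1.18 with every biotype, 1.39 above the median score, 1.39 with 1 peak per family and 1.01 within score quintiles; against unmarked peaks 1.44 at 10 kb, 1.47 with no active mark within 1 kb and 6.37 above the median score; and against gene starts 1.91 with 1 peak per family and 1.03 within quintiles. For Kap1 KD PolII they were 0.898 at 10 kb and 0.837 with every biotype against gene starts, and 1.04 with 1 peak per family against gene bodies. For PolIII against gene bodies they were 0.996 (control, peak cut to 500 bp), 0.869 at 10 kb and 0.853 within 1 kb (Kap1 KD), and 0.732 for Kap1 KD against gene starts at 10 kb. The cause was not tested.

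With H3K9me3 over at least 50% of the peak there were 1822 members, 1190 of them in families, 28.9% multi-copy and 27.1% with direct repeats. At or above the median KAP1 score there were 1631, 1100 in families and 30.5% multi-copy. At 10 kb 31.2% had direct repeats. Cutting the Kap1 KD PolII list to the control length gave a share of 1.03%, a setting that was added once the data had been seen.

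Leaving out each chromosome in turn, the odds ratios against gene starts, gene bodies and unmarked peaks ranged as follows. They were for multi-copy sequence 16.9 to 20.5, 1.64 to 1.75 and 3.58 to 3.92. For flanking direct repeats 23.1 to 29.6, 1.63 to 1.8 and 4.23 to 4.68. For control PolII 0.683 to 1.12, 0.866 to 1.25 and 0.691 to 0.911. For Kap1 KD PolII 1.14 to 1.5, 0.752 to 0.873 and 1.22 to 1.5. For control PolIII 1.87 to 2.47, 1.14 to 1.68 and 0.292 to 0.667. For Kap1 KD PolIII 1.54 to 2.48, 0.993 to 3.73 and 0.0558 to 0.106.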

Other observations

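Some smaller families stood apart from the large ones. Family 23 had 11 members, all on chromosome 12, with a median KAP1 score of 428 and direct repeats around 10 of them, a median of 4530 bp apart. Family 10 (32 members) had the lowest GC content of the families with 10 or more members, at 29.2%, and only 35.0% of the median peak lay in H3K9me3. Family 16 (18 members) had a median KAP1 score of 58.4, close to the lowest score of the deposited list (50.0). Family 19 (13 members) had the highest CpG ratio, at 0.844, with direct repeats around 9 members at a median spacing of 7077 bp.

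Of the 1176 unmarked distal peaks, 463 (39.4%) shared sequence with at least 1 distal KAP1/H3K9me3 peak, as did 414 of 965 in gene bodies (42.9%) and 59 of 620 near gene starts (9.52%). Family 1 was linked to 187 peaks in gene bodies and 92 unmarked ones, and family 2 to 11 and 62. Of the unmarked peaks, 114 lay within 1 kb of an H3K9me3 region.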
